A study of Homo sapiens with 6 samples.

Results

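Lymphocytes display a set of surface proteins when they are stimulated, and 10 genes for such activation markers are described here: CD69, CD83, CD40, CD80, CD86, CD44, FCER2, CD70, TNFRSF8 and SLAMF1. The genes were picked by name from the array's annotation, where they are read by 34 of 49293 human probe sets. Each gene was represented by the probe set with the highest mean log2 intensity over the arrays, and its other probe sets served as a check. All 10 genes passed the filter on dim genes, which kept 12198 genes.

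The cells were P493-6, a human B cell line described in the labels as a B-cell lymphoma, whose c-Myc transgene is repressed by tetracycline. Total RNA was measured on 6 Affymetrix arrays in 3 groups of 2: low-Myc, with 0 hours of release from repression, mid-Myc, with 1 hour, and high-Myc, with 24 hours. The cells of every group carry the transgene and were grown with serum, and synthetic ERCC RNAs were added in proportion to the number of cells. As background, the line derives from B cells immortalised with Epstein-Barr virus, and it is a single line, so the arrays within a group share its genome. A protocol field of the mid-Myc samples gives 0 hours and another gives 1 hour, and 1 hour was taken here since the labels call the c-Myc level of the group moderate.

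The markers belong to a few families that pass signals between lymphocytes. CD40 is a receptor of the tumour necrosis factor (TNF) receptor family that takes the help signal of T cells, and TNFRSF8, also called CD30, is of the same family, while CD70 is a TNF-family ligand for the receptor CD27. CD80 and CD86 bind CD28 and CTLA4 on T cells, and CD83 holds CD86 and MHC class II at the surface by limiting their ubiquitination. CD69 is a lectin-like protein that appears early after stimulation and draws the lipid receptor S1PR1 from the surface. FCER2, or CD23, is the low-affinity IgE receptor, CD44 binds hyaluronan, and SLAMF1 binds itself on neighbouring cells. In B cells carrying Epstein-Barr virus, FCER2 is a known target of the viral protein EBNA2, which acts through the DNA-binding protein RBPJ. Whether EBNA2 was active in the cells used here was not examined.

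Of the 10 genes, 7 had promoters in the RefSeq table of build GRCh38.p14. CD40, CD69 and CD70 had no entry there. The promoter of CD83 at chr6:14117522-14117771 and that of FCER2 at chr19:7702132-7702381 are shown because these genes were, with CD70, the members that rose most at 1 hour. CD83 lies on the plus strand and FCER2 on the minus strand, and each run is the 250 bases before the annotated start, 5′ to 3′. Capitals in CD83 mark the NF-kB consensus and the EGR pattern GCGNGGGCG, and capitals in FCER2 mark the AP-1 pattern TGANTCA and the RBPJ pattern GTGGGAA, each searched on both strands.
CD83 promoter: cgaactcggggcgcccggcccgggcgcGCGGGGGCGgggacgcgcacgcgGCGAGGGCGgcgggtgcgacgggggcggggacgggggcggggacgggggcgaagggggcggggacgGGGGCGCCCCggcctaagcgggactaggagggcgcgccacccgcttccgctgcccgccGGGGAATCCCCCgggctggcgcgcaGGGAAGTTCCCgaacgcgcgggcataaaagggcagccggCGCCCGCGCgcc
FCER2 promoter: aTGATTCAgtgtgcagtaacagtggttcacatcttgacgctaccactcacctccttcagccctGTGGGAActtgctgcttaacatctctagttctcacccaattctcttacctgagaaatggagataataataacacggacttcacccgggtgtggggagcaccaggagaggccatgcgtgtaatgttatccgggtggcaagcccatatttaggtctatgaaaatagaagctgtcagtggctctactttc

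The CD83 promoter held the NF-kB consensus in 3 separate stretches, at 134 to 125, 76 to 65 and 51 to 41 bases before the start. The last 2 of these hold overlapping matches on both strands. At least 1 such match was present in 9.96% of the 35116 promoters of this length, and as many as 3 stretches in 0.0626%. The EGR pattern stood in 3 places, at 223 to 215, 200 to 192 and 12 to 4 bases before the start, against 8.41% of promoters with at least 1 match and 0.188% with as many. Both patterns and this promoter are rich in G and C, and the reference promoters were not matched for base composition. The shares therefore do not measure rarity among promoters like this one. The other annotated start of CD83 had no match to any pattern searched. In FCER2 the AP-1 pattern lay 249 to 243 and the RBPJ pattern 187 to 181 bases before the start, and these occur in 6.57% and 5.43% of promoters. The RBPJ pattern was added after the values had been seen. The second FCER2 promoter held 1 AP-1 and 1 NF-kB stretch, the second CD86 promoter 1 NF-kB stretch, and those of CD44, CD80, SLAMF1 and TNFRSF8 none of the patterns, among which were also the E-box CACGTG (6.34% of promoters) and the CRE TGACGTCA (1.65%). A match describes letters and shows no binding.

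Values are given on 2 scales besides the deposited intensity, which is linear. On the per-cell scale each array had a curve fitted through its ERCC probe sets subtracted, so that a difference is relative to RNA added by cell number. On the equal-median scale the median of all human probe sets was taken off array by array, so that a difference is relative to other genes. Differences are in log2, were tested in 1 limma fit over the 6 arrays with Benjamini-Hochberg adjustment over 12198 genes, and were called at an adjusted p under 0.05. SE and 95% intervals come from that fit. The arrays are described as biological duplicates, and the p-values rest on the spread between duplicates together with a spread borrowed from all genes.

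The released gene, MYC, had 10471.5 and 10278.6 intensity on low-Myc arrays, 10031.4 and 9940.8 on mid-Myc arrays and 11888.1 and 11979.1 on high-Myc arrays. Against low-Myc it was at 0.96 per cell in high-Myc and 0.13 in mid-Myc, where the median gene was at 0.97 and 0.30. On the equal-median scale it was at 0.34 and 0.09, against 0.05 and 0.09. MYC at 1 hour was thus close to or below the median gene. The 55 ERCC probe sets above the filter level of 33.8 intensity had a median deposited difference of -1.25 log2 in high-Myc and -0.34 in mid-Myc against low-Myc arrays. The 9 B cell surface markers averaged from 254 (CD37) to 9516 (MS4A1) intensity in high-Myc arrays, and CD37 stood at 738 and MS4A1 at 12704 in low-Myc arrays. In contrast, 4 of 12 T and NK cell markers, CD3D, CD8A, KLRD1 and GZMB, were below the filter. The summed intensity of those 12 was 446 to 453 in high-Myc, against 564 to 600 in low-Myc arrays. Of 11 monocyte and dendritic cell markers 6 were below the filter, CD14 among them, and the summed intensity was 806 to 815 in high-Myc, against 1913 to 1938 in low-Myc arrays. LYZ alone averaged 387 in high-Myc and 1199 in low-Myc arrays. Whether other cells took part in the results was not tested. The 3′ to 5′ signal ratio of the ACTB control was 3.44 to 3.67 in high-Myc and 2.76 to 2.86 in low-Myc arrays, while that of GAPDH was 1.15 to 1.20 in high-Myc and 1.13 to 1.22 in low-Myc arrays. The part of the ACTB difference in the results was not tested either.

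**Figure D1:**
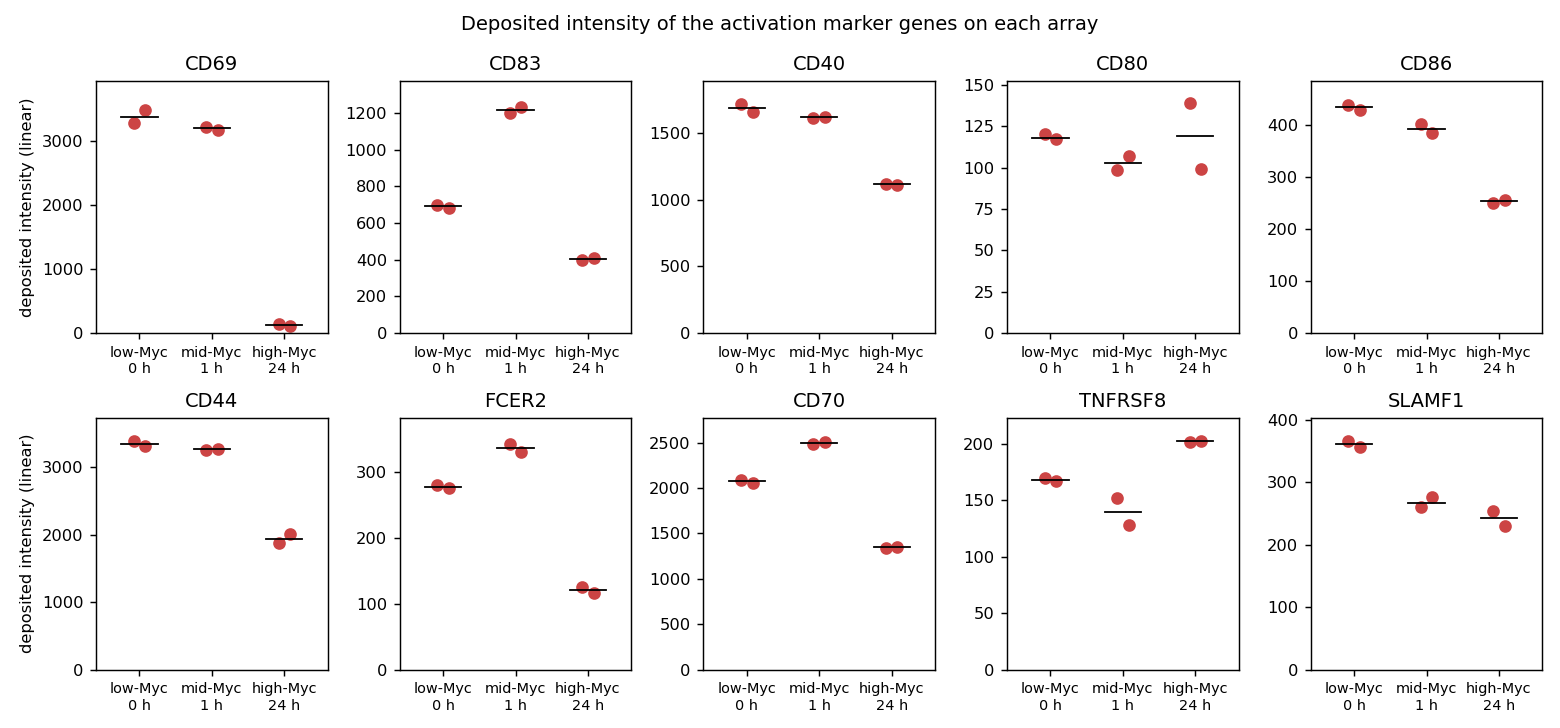
Deposited linear intensity (vertical axis, each panel with its own range from 0) of the 10 activation marker genes on each array, by group and hours of release. Points are single arrays and lines are means of 2; CD69 falls to 135 and 108 on high-Myc arrays, CD83, FCER2 and CD70 are highest on mid-Myc arrays, and the 2 high-Myc arrays differ for CD80.

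After 24 hours of c-Myc release, 6 of the 10 markers had opposite calls on the 2 scales, while CD69 was lower and TNFRSF8 higher on both. Relative to RNA added by cell number, 8 of the 10 markers were higher after release (high-Myc against low-Myc), CD69 was lower, and FCER2 was not called. Among all tested genes 90.8% were higher and 2.53% lower on this scale, so the 8 rises are near the background share. The 7 antigenomic background probe sets above the filter, which match no human transcript, rose by 0.73 to 1.56 per cell. The rises of CD83, CD40, CD86, CD44, CD70 and SLAMF1 were smaller than that. Apart from 1 at 694, however, the background probe sets averaged up to 194 intensity. All 6 genes averaged above 194 in each group, and CD40, CD44 and CD70 above 694. For these brightest genes the background probe sets give no reference at their own level. Relative to other genes, 8 of the 10 were lower in high-Myc cells, TNFRSF8 was higher and CD80 was not called, against 26% of all tested genes lower and 37.7% higher. The 6 genes CD83, CD40, CD86, CD44, CD70 and SLAMF1 thus rose on the first scale and fell on the second. The median of the members was 0.49 per cell, against 0.97 for all tested genes, and -0.56 relative to other genes, against 0.05 for all. On either scale, 8 of the 10 lay below the median gene. With 1 factor per array from all ERCC probe sets in place of the curve, 5 markers were higher and 2 lower per cell, and of all tested genes 10293 were higher and 728 lower. Centred on the tested genes, 8 were lower and 0 higher, while 3500 of all tested genes were then higher and 4931 lower, against 4598 and 3172 with the equal median.

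**Figure D2:**
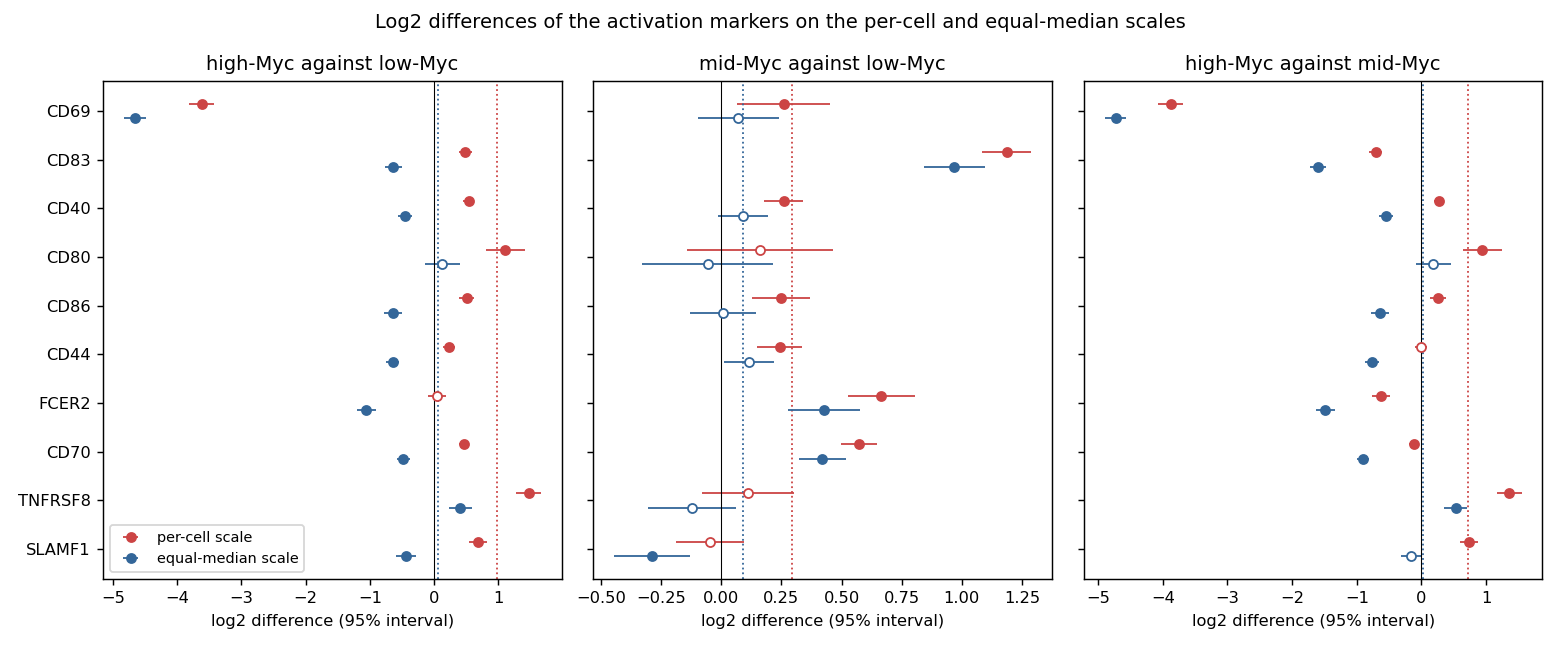
Log2 differences of the 10 markers (horizontal axis) with 95% intervals from limma, for each comparison, on the per-cell scale (red) and the equal-median scale (blue); filled points passed an adjusted p of 0.05, and dotted lines are the medians of all tested genes. In high-Myc against low-Myc, CD69 is far below 0 on both scales and 7 markers lie above 0 in red and below 0 in blue, of which FCER2 was not called in red.

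CD69, the early activation lectin (chr12:9752486-9760901, with all gene positions from RefSeq, GRCh38.p14), had the largest fall of the members. Its intensity was 3275 and 3466 on low-Myc arrays, 3211 and 3170 on mid-Myc arrays, and 135 and 108 on high-Myc arrays. Both high-Myc arrays lay far below the other 4, which are close together. High-Myc against low-Myc cells differed by -3.62 log2 per cell (SE 0.09, limma adjusted p = 1.28e-10), a 12.3-fold decrease, and by -4.66 on the equal-median scale (SE 0.08, adjusted p = 7.1e-14), a 25.3-fold decrease. Among 12198 genes it had rank 5 from the largest fall on either scale. Its level at 24 hours lay within the range of the antigenomic background probe sets, which match no human transcript and, apart from 1 at 694, reached 194 intensity, so the size of the fall is not settled. The per-cell value ranged from -3.53 without high-Myc replicate 2 or low-Myc replicate 2 to -3.84 without high-Myc replicate 1.

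The 2 other probe sets of CD69 were also lower at 24 hours, at -3.18 and -3.00 log2 per cell, with 9.0 to 10.5 intensity on high-Myc arrays. At 1 hour they went against the probe set used. They read 80.7 and 63.2, and 67.1 and 64.6, on mid-Myc arrays, against 148 to 149 on low-Myc arrays, a per-cell difference of -0.73 and -0.85. For the probe set used the 1-hour difference was 0.26 per cell (SE 0.09, adjusted p = 0.0239) and 0.07 relative to other genes (adjusted p = 0.54). The dimmer probe sets stood within the intensity range of background probe sets on every array. The per-cell call was lost when low-Myc replicate 1 was left out, with 0.22 and an adjusted p of 0.117. Leaving out mid-Myc replicate 1 gave 0.26 with an adjusted p of 0.081, and leaving out mid-Myc replicate 2 gave 0.29 with an adjusted p of 0.0628. Averaged over its 3 probe sets CD69 was at -0.44 per cell (adjusted p = 0.000255), so its direction at 1 hour was not settled.

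The 5 genes whose profile over the 6 arrays was nearest to that of CD69, by Euclidean distance of mean-centred log2 values on the equal-median scale, were EGR1 (distance 0.91), NR4A1 (1.04), NR4A3 (1.12), RUNDC2A (1.35) and DUSP5 (1.66). EGR1, NR4A1 and NR4A3 are transcription factors of the immediate early response and DUSP5 is a phosphatase of ERK kinases. In high-Myc against low-Myc cells EGR1 was at -5.36 log2 on that scale and DUSP5 at -3.03. Their high-Myc levels of 46.4 and 192, like those of NR4A1 (80.0), RUNDC2A (69.5) and NR4A3 (23.8, under the filter level), lay within the range of the background probe sets, so the sizes of these falls and the distances are not settled. In mid-Myc against low-Myc cells the 5 genes parted, with EGR1 at -0.67, RUNDC2A at -0.39, NR4A3 at 0.85, NR4A1 at 1.01 and DUSP5 at 1.04. CD69 was at 0.07 in that comparison. It was taken for its large fall, which dominates a distance of unscaled values, so nearness here shows no shared course at 1 hour.

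CD83 (chr6:14117256-14136918) rose at 1 hour more than any other member. Its single probe set read 697 and 683 intensity on low-Myc arrays, 1201 and 1234 on mid-Myc arrays, and 396 and 411 on high-Myc arrays, and no 2 groups overlapped. Mid-Myc cells were higher than low-Myc cells by 1.19 log2 per cell (SE 0.04, limma adjusted p = 3.45e-07), 2.28-fold, and by 0.97 on the equal-median scale (SE 0.06, adjusted p = 1.68e-07). That gave it rank 54 from the largest rise per cell among 12198 genes and rank 56 on the equal-median scale. From 1 to 24 hours it fell by 0.71 per cell (SE 0.04, adjusted p = 1.99e-07), and the difference relative to other genes was -1.60 (adjusted p = 3.34e-11). At 24 hours it stood 0.48 above low-Myc cells per cell (SE 0.04, adjusted p = 3.09e-06) and 0.63 below them on the equal-median scale (adjusted p = 3.22e-07). With 1 factor per array from all ERCC probe sets the last per-cell value was 0.05 (adjusted p = 0.394), and the call was lost.

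Of the ligands of CD28 and CTLA4, CD86 (chr3:122055362-122121136) was called lower relative to other genes at 24 hours and CD80 was not called, and the difference between them was not tested. CD86 read 440 and 429 intensity on low-Myc arrays, 402 and 386 on mid-Myc arrays, and 251 and 257 on high-Myc arrays. The deposited values fell in that order without overlap, whereas per cell high-Myc stood 0.51 above low-Myc cells (SE 0.05, limma adjusted p = 7.47e-06), and on the equal-median scale at -0.64 (SE 0.06, adjusted p = 7.84e-07). All 4 other CD86 probe sets had the same signs, from 0.33 to 1.06 per cell and from -0.74 to -0.02 on the equal-median scale. The last of these was close to no change. The per-cell rise was 0.05 (adjusted p = 0.457) with 1 factor from all ERCC probe sets, which ended the call.

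CD80 (chr3:119524293-119559614) read 120 and 117 intensity on low-Myc arrays, 98.5 and 107 on mid-Myc arrays, and 139 and 99.3 on high-Myc arrays. The 2 high-Myc arrays lay on either side of the low-Myc arrays, so the deposited groups overlapped. Per cell CD80 was higher in high-Myc cells by 1.10 log2 (SE 0.13, limma adjusted p = 2.48e-05), close to the median gene, and its other 4 probe sets were at 0.50 to 0.92. The 7 background probe sets above the filter rose by 0.73 to 1.56 per cell in the same comparison, so at this intensity the rise is no larger than that of probes without a target. Relative to other genes CD80 was at 0.13 (95% interval -0.14 to 0.40, adjusted p = 0.399). It was called higher there without high-Myc replicate 2 (0.36, adjusted p = 0.00942). Without high-Myc replicate 1 it was at -0.10. At 1 hour CD80 was not called on either scale, with 0.16 per cell (95% interval -0.14 to 0.47) and -0.06 (-0.33 to 0.22).

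CD40, the receptor for T cell help (chr20:46118314-46129858), read 1715 and 1659 intensity on low-Myc arrays, 1612 and 1622 on mid-Myc arrays, and 1122 and 1109 on high-Myc arrays. Low-Myc and mid-Myc arrays were close and high-Myc arrays lower in the deposited values. High-Myc stood above low-Myc cells by 0.53 log2 per cell (SE 0.04, limma adjusted p = 1.91e-07) and below them at -0.46 on the equal-median scale (SE 0.05, adjusted p = 1.33e-06). Its second probe set gave 0.72 and -0.36. The 11 ERCC probe sets within 1 log2 of the level of CD40 still lay at -0.19 ± 0.06 (median and SD over probe sets) after the curve was subtracted. For CD44 and CD70 the 8 nearest in level lay at -0.19 ± 0.08 and -0.18 ± 0.06, and for CD70 in high-Myc against mid-Myc at -0.14 ± 0.07. Near the other members the medians in high-Myc against low-Myc were also negative, from -0.08 (SLAMF1) to -0.19 (CD69). The SDs there were 0.12 to 0.26. Near FCER2, whose own per-cell difference was 0.04, the median was -0.14. The part of these residuals in the results was not tested.

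TNFRSF8, the CD30 receptor (chr1:12063303-12144207), was the only member called higher in high-Myc cells on both scales. Its intensity was 170 and 167 on low-Myc arrays, 152 and 128 on mid-Myc arrays, and 202 and 204 on high-Myc arrays. High-Myc arrays lay above the other 4. The rise over low-Myc cells was 1.47 log2 per cell (SE 0.08, limma adjusted p = 6.36e-08) and 0.41 relative to other genes (SE 0.08, adjusted p = 0.000686), and the equal-median value was 0.20 (adjusted p = 0.0512) when arrays were centred on the tested genes. Background probe sets moved by 0.73 to 1.56 per cell and by 0.09 to 0.44 on the equal-median scale, ranges that hold both values. Its second probe set, at 35.2 and 35.8 intensity on high-Myc and 35.9 and 35.2 on low-Myc arrays, gave 0.70 and 0.13. The nearest profiles to TNFRSF8 were those of CEND1, SFT2D3, DHX16, DLG5 and LPCAT4, at distances of 0.087 to 0.12, all with small changes on the equal-median scale, from 0.40 to 0.46 at 24 hours.

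CD70, the ligand of CD27 (chr19:6581648-6591150), was highest on mid-Myc arrays. It read 2089 and 2055 intensity on low-Myc arrays, 2493 and 2506 on mid-Myc arrays, and 1341 and 1354 on high-Myc arrays, with no overlap between groups. The 1-hour rise was 0.57 log2 per cell (SE 0.03, limma adjusted p = 3.19e-06) and 0.42 relative to other genes (SE 0.05, adjusted p = 2.63e-05), and the dimmer second probe set gave 0.72 and 0.51. At 24 hours CD70 stood 0.46 above low-Myc cells per cell (adjusted p = 4.05e-07) and at -0.48 on the equal-median scale (adjusted p = 3.81e-07). The second probe set went the other way relative to other genes, at 0.16. From 1 to 24 hours the per-cell difference of -0.11 (adjusted p = 0.0112) was -0.011 (adjusted p = 0.763) with a curve of span 0.4 and -0.11 (adjusted p = 0.0569) without mid-Myc replicate 2, and averaged over both probe sets it was 0.14 (adjusted p = 0.00867). Its direction on that scale is not settled.

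FCER2, the IgE receptor (chr19:7688776-7702131), followed the same course as CD70 in the deposited values, with a larger fall at 24 hours. Its single probe set read 280 and 276 intensity on low-Myc arrays, 343 and 330 on mid-Myc arrays, and 125 and 117 on high-Myc arrays. Mid-Myc arrays were highest and high-Myc arrays lowest, without overlap, and the high-Myc values lay within the range of the background probe sets. The rise at 1 hour was 0.66 log2 per cell (SE 0.06, limma adjusted p = 2.27e-05) and 0.43 relative to other genes (SE 0.07, adjusted p = 0.000571). From 1 to 24 hours FCER2 fell by 0.62 per cell (adjusted p = 6.08e-06) and by 1.48 relative to other genes (adjusted p = 3.34e-10). High-Myc against low-Myc cells differed by 0.04 per cell (95% interval -0.10 to 0.18, adjusted p = 0.513) and by -1.06 on the equal-median scale (adjusted p = 9.87e-09). With 1 factor from all ERCC probe sets the per-cell value was -0.37 (adjusted p = 0.000405), so no direction can be given per cell.

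CD44, the hyaluronan receptor (chr11:35139171-35232402), was read by 10 probe sets. The probe set used stood at 3382 and 3309 intensity on low-Myc arrays, 3259 and 3273 on mid-Myc arrays, and 1869 and 2014 on high-Myc arrays, the last well below the others. Per cell, high-Myc differed from low-Myc cells by 0.23 log2 (SE 0.04, limma adjusted p = 0.000416), but the 9 other probe sets ran from -0.12 to 0.33, and 6 of them shared its sign. Averaged over all 10 probe sets the difference was 0.07 (adjusted p = 0.0948), and it was 0.04 (adjusted p = 0.446) with 1 factor from all ERCC probe sets. Relative to other genes all 10 probe sets were lower in high-Myc cells, the one used at -0.65 (SE 0.05, adjusted p = 3.9e-08) and the others at -1.19 to -0.63. At 1 hour all 10 were higher per cell, the one used by 0.24 (adjusted p = 0.000704).

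SLAMF1 (chr1:160608106-160647044) was the member with a called fall at 1 hour, on the equal-median scale alone. It read 367 and 357 intensity on low-Myc arrays, 260 and 276 on mid-Myc arrays, and 254 and 231 on high-Myc arrays. The low-Myc arrays stood above the other 4, whose groups lie next to each other. Mid-Myc against low-Myc cells differed by -0.29 log2 relative to other genes (SE 0.07, limma adjusted p = 0.00995), a call lost when low-Myc replicate 1 (-0.26 with an adjusted p of 0.0622) and when mid-Myc replicate 1 (-0.23 with an adjusted p of 0.091) was left out. It was also lost with the mean of its 3 probe sets (-0.20, adjusted p = 0.065). Per cell the difference was -0.05 (95% interval -0.19 to 0.10, adjusted p = 0.552). At 24 hours SLAMF1 was higher than in low-Myc cells by 0.69 per cell (SE 0.06, adjusted p = 2.63e-06) and at -0.44 on the equal-median scale (adjusted p = 0.000108). Its 2 other probe sets gave 0.68 and 0.76, and -0.30 and -0.07. Background probe sets rose by 0.73 to 1.56 per cell, more than the SLAMF1 probe set used, though apart from 1 at 694 they were dimmer than it.

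**Figure D3:**
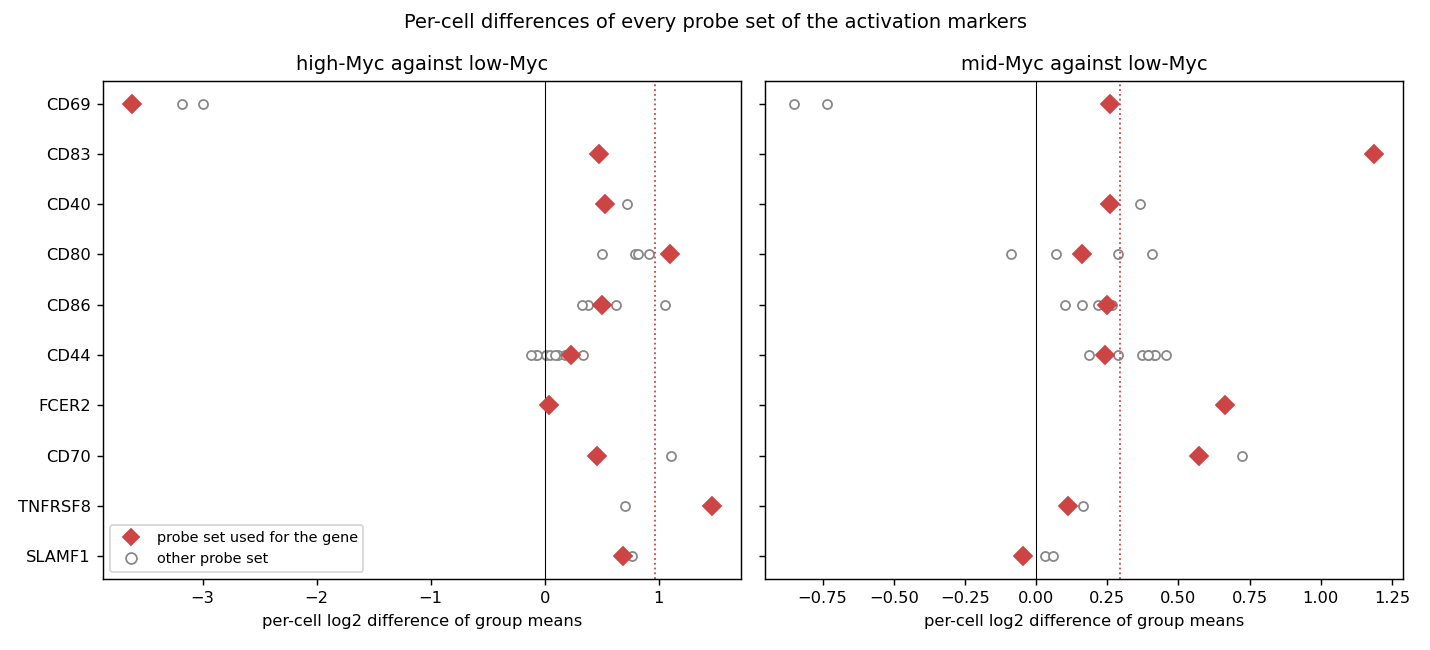
Per-cell log2 difference (horizontal axis) of every probe set of the 10 markers, in high-Myc against low-Myc (left) and mid-Myc against low-Myc (right); red diamonds are the probe sets used, open circles the others, and the dotted line is the median of all tested genes. The 3 CD69 probe sets lie together at 24 hours, while at 1 hour the 2 dimmer ones lie at -0.73 and -0.85 and the one used at 0.26.

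Over the group, 7 of the 10 markers were higher at 1 hour per cell and 0 lower, against 62.4% and 0.697% of all tested genes. The 3 not called by limma were CD80, TNFRSF8 and SLAMF1, and 0 members were lower at an unadjusted p under 0.05. Background probe sets rose by 0.19 to 0.45 per cell at 1 hour, a range that holds the called rises of CD69, CD40, CD86 and CD44. Apart from 1 at 694, these probe sets averaged up to 194 intensity. CD69, CD40 and CD44 averaged above 694 in low-Myc and mid-Myc arrays, so the range gives no reference at their level. TNFRSF8 was called higher per cell without mid-Myc replicate 2 (0.23, adjusted p = 0.0397) and lower in the values as deposited (-0.27, adjusted p = 0.0468). Relative to other genes CD83, FCER2 and CD70 were higher and SLAMF1 lower, against 25.7% and 3.39% of genes. CD83, FCER2 and CD70 stayed higher with quantile normalization, in the values as deposited and when arrays were centred on the tested genes, and 2 markers were lower in each of the first 2 settings, SLAMF1 with CD40 in the first and SLAMF1 with TNFRSF8 in the second. The counts over all genes were 3139 higher and 414 lower on the equal median but 955 and 1195 with quantile normalization. The mid-Myc samples carry numbers out of sequence with the rest, so a separate run of these arrays and a 1-hour change cannot be told apart. RNA was measured in bulk, so fewer cells carrying a transcript and less transcript per cell cannot be told apart either.

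Between 1 and 24 hours, 5 markers were higher and 4 lower per cell, against 81.7% and 6.57% of all tested genes. The 4 were CD69, CD83, FCER2 and CD70, and the direction of CD70 was not settled, as given above. With 1 factor from all ERCC probe sets 3 markers were higher, CD40 being at 0.015 (adjusted p = 0.8) and CD86 at -0.084. Relative to other genes 7 were lower and TNFRSF8 was higher, against 30.9% and 33.3% of all. This comparison shares its high-Myc arrays with that of 24 against 0 hours and its mid-Myc arrays with that of 1 against 0 hours. CD44 was not called per cell (-0.011, 95% interval -0.10 to 0.08), but 8 of its 9 other probe sets were also negative, down to -0.48. It was called lower over all 10 probe sets (-0.27, adjusted p = 0.000138) and with 1 factor from all ERCC probe sets (-0.20, adjusted p = 0.00239).

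**Figure D4:**
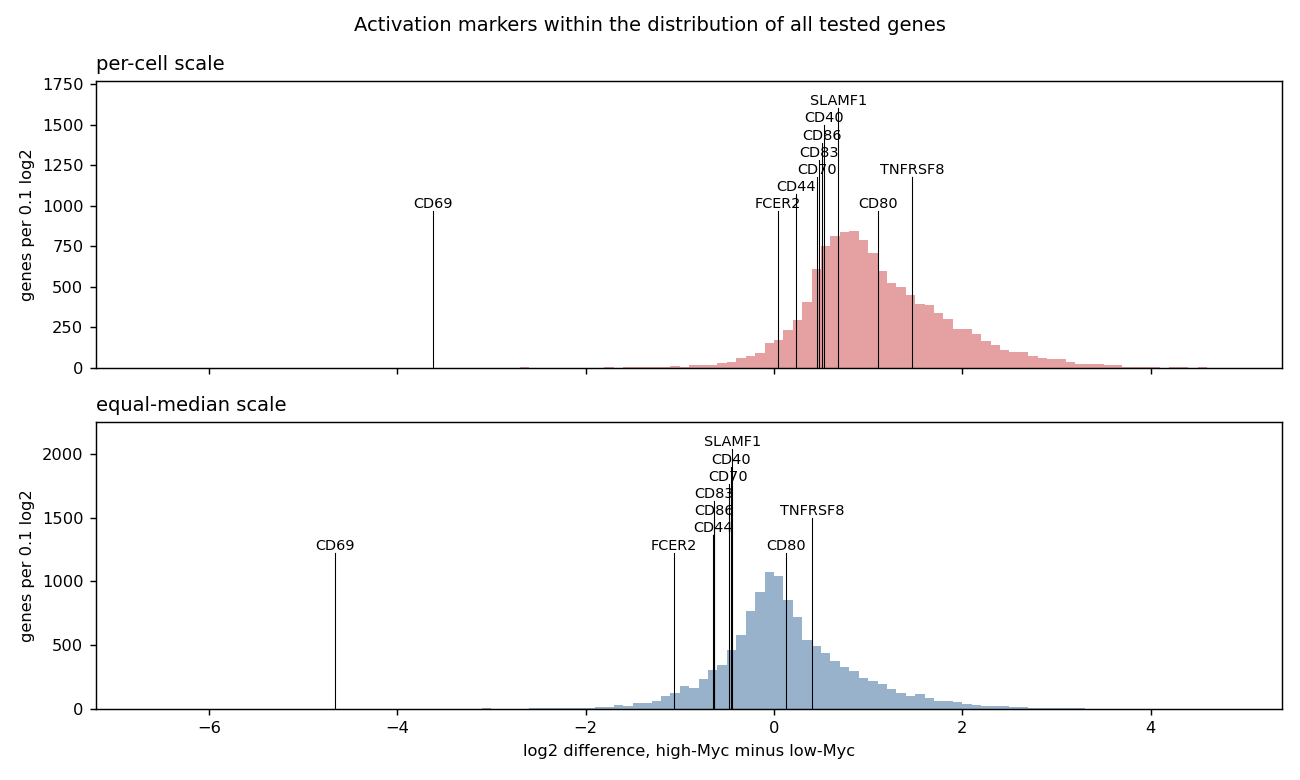
Number of tested genes per 0.1 log2 of high-Myc minus low-Myc difference (horizontal axis), on the per-cell scale (top) and the equal-median scale (bottom), with the 10 markers as labelled lines. CD69 stands apart on the far left at -3.62 and -4.66, and 8 of the 10 markers lie left of the medians of 0.97 and 0.05.

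The binding partners of the markers were in part dim. Of 14 partners and adaptors, 13 were on the array and 6 were tested, while CD28, CTLA4, TNFSF8, CR2, SH2D1A, SH2D1B and SPP1 were below the filter. S1PR1, which CD69 binds, fell with it at 24 hours, by 0.65 log2 per cell and 1.70 relative to other genes, and rose at 1 hour by 0.52 and 0.29. Its high-Myc level of 61.9 lay within the range of the background probe sets, so the size of its fall is not settled. CD27, the receptor of CD70, was at 0.52 per cell and -0.63 relative to other genes in high-Myc against low-Myc cells, close to CD70 itself. ADAM10, the protease that sheds FCER2, was at 0.53 and -0.58. The membrane-cytoskeleton linkers that bind the tail of CD44 parted, with RDX at 1.74 and 0.59 while EZR was at 0.71 and -0.41 and MSN at 0.49 and -0.38. EZR and MSN rose at 1 hour relative to other genes, by 0.38 and 0.34. In all, 5 of 6 were higher and 1 lower per cell at 24 hours (median 0.52), and 1 higher and 5 lower on the equal-median scale (median -0.50). Of all tested genes 90.8% were higher and 2.53% lower per cell, and 37.7% higher and 26% lower on the equal-median scale.

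Signalling genes downstream of CD40 and CD30 were also examined. Of 17 tested TNF receptor adaptors, NF-kB subunits and inhibitors, 15 were higher per cell at 24 hours (median 0.91), and relative to other genes 6 were higher and 8 lower (median -0.11). Of all tested genes 90.8% were higher per cell, so the 15 are near the background share. Relative to other genes 37.7% of all were higher and 26% lower. TRAF3, an adaptor that restrains non-canonical NF-kB signalling, was at 0.83 on the equal-median scale, whereas TANK (-0.99), TRAF5 (-0.94) and the NF-kB subunit REL (-0.88) were lower. TRAF5 averaged 72.6 in high-Myc arrays, within the range of the background probe sets, so the size of its fall is not settled. At 1 hour 7 of the list were higher and 0 lower on the equal-median scale, against 25.7% and 3.39% of all tested genes. TRAF6 (0.66) and TRAF4 (0.56) led, but TRAF6 averaged 93.3 in low-Myc and 133 in mid-Myc arrays, within the range of the background probe sets. In high-Myc against mid-Myc cells 1 was higher and 12 lower on that scale (median -0.26), against 33.3% and 30.9% of all tested genes (median 0.02).

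Of 25 tested other surface molecules of activated lymphocytes, 16 were higher and 5 lower per cell at 24 hours (median 0.81), and 6 higher and 14 lower relative to other genes (median -0.24). Of all tested genes 90.8% were higher and 2.53% lower per cell, and 37.7% higher and 26% lower relative to other genes. TNFSF9, the 4-1BB ligand, fell by 0.88 per cell and was at -2.02 on the equal-median scale. TFRC and FAS had the largest rises of the list, at 1.79 and 1.63 per cell and at 0.90 and 0.49 on the equal-median scale. The SLAM family relatives of SLAMF1 were mixed per cell. SLAMF6 (-0.53), CD84 (-0.22) and LY9 (-0.25) fell, whereas SLAMF7 (0.93) and CD48 (0.53) rose, the last 2 being named after their values were seen. On the equal-median scale SLAMF6 was at -1.63, CD84 at -1.30, LY9 at -1.29 and CD48 at -0.40, and SLAMF7 at -0.15 was not called. High-Myc levels of TNFSF9 (184), SLAMF6 (97.1), CD84 (102), LY9 (62.2) and SLAMF7 (171) lay within the range of the background probe sets. The sizes of their changes are therefore not settled. LY9 and the checkpoint ligand CD274 rose at 1 hour by 0.76 and 0.65 on the equal-median scale, as part of 9 genes of this list that rose, against 2 that fell. Of all tested genes 25.7% rose and 3.39% fell. CD274 averaged 64.5 in low-Myc and 91.4 in mid-Myc arrays, within the range of the background probe sets.

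B cell lineage markers rose at 1 hour in 9 of 9 per cell (median 0.44) and in 8 of 9 relative to other genes (median 0.26), against 62.4% and 25.7% of all tested genes, whose medians were 0.30 and 0.09. CD79A was at 0.36 and CD74 at 0.35 on the equal-median scale. In the deposited values all but MS4A1 and CD72 were also higher on average. Other scalings were not applied to this list. Over all genes the 1-hour counts moved from 3139 higher and 414 lower on the equal median to 955 and 1195 with quantile normalization. At 24 hours 4 were higher and 4 lower per cell (median -0.05), and all 9 were lower on the equal-median scale (median -0.93), against 26% of all tested genes, with CD72 at -2.16, CD79B at -1.50, CD37 at -1.40 and CD79A at -1.20. The plasma cell list ran the other way in part, with MZB1 at 0.86, XBP1 at 0.55, JCHAIN at -0.38 and SDC1, not called, at 0.18 at 24 hours. Its 6 genes had a median of 0.12, and IRF4 and PRDM1 rose by 0.75 and 0.62 at 1 hour. Of the T and NK cell list, 7 of 8 tested genes were higher and CD3G lower per cell at 24 hours (median 0.48). The shares over all tested genes were 90.8% higher and 2.53% lower (median 0.97), so the 7 rises are near the background share. Group means of the 8 genes ran from 25.9 (CD3G, high-Myc) to 104 (CD7, low-Myc), levels that probes without a target also reached. Such probes rose by 0.73 to 1.56 per cell, and the largest rise of the list was 0.96 (CD7). The sizes of the changes in this list are therefore not settled. Relative to other genes CD3G was at -1.02, the 1 gene called, with CD3E (-0.29), CD2 (-0.28) and NKG7 (-0.25) not called. Of 5 tested monocyte and dendritic cell genes LYZ (-1.49), CD1C (-1.48) and CD68 (-1.03) were lower on that scale at 24 hours. CSF1R at -0.27 and ITGAX were not called, and 26% of all tested genes were lower. Per cell ITGAX was higher at 1.01, LYZ and CD1C were lower, each at -0.41, and CD68 and CSF1R were not called (median 0.01). Of all tested genes 90.8% were higher and 2.53% lower per cell. The rise of ITGAX lay within the 0.73 to 1.56 of the background probe sets. CD1C (83.7) and CD68 (81.9) averaged within the range of the background probe sets in high-Myc arrays, so the sizes of their falls are not settled.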

How the data were processed

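The deposited values were probe set intensities on a linear scale, which the authors computed in MAS5, per the submitters' processing notes. For its version and scaling target, the sources used here give nothing. Symbols came from the platform annotation, updated through Entrez identifiers for 45208 of 45278 probe sets with 1 symbol. Genes above the 40th percentile of mean log2 intensity (33.8) were tested. The per-cell scale subtracts from each array a robust loess curve (span 0.7, degree 1) through 100 ERCC probe sets, and the equal-median scale subtracts the human median. Groups were compared in limma 3.58.1 (R 4.3.3) with a variance trend, two-sided. With 2 arrays a group, the smallest p of an exact permutation test is 0.33. The steps were tested on simulated data. No detection calls were used, and the number of arrays limits the precision.

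The members, the gene lists and the motifs were chosen with earlier results of these data known. The text names all members, MYC, up to 4 genes of each list with the largest 24-hour change and up to 2 with the largest 1-hour change on the equal-median scale, and the 5 nearest profiles of the members with the largest fall and rise. MS4A1, SLAMF7, CD48, TFRC, FAS and ITGAX were added after their values were seen. Lists are described by counts and medians only, on the 2 scales and without the alternative scalings. Genes of the lists without a probe set of 1 symbol were not analysed here.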

Additional observations from a re-analysis of the deposited data

How the results depend on the processing

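Alternatives covered the filter, the probe sets, a pseudocount of 16, the variance trend, which groups were fitted, leaving out arrays and other scalings. A curve read at the level of the array itself and the factor from the brighter ERCC probe sets were chosen after seeing the data. Of 510 per-cell member values 482 kept their direction and their side of the threshold, and of 480 on the equal-median scale 447 did. The cause of the changes was not tested, except that averaging probe sets brings in the dimmer ones. With the mean of all probe sets, 1 marker was lower per cell at 1 hour against 0, CD69 at -0.44, with SLAMF1 at 0.015, and CD70 was at 0.14 in high-Myc against mid-Myc. On the equal-median scale this setting gave CD69 -0.62 and CD86 -0.033 at 1 hour, and CD80 -0.048 against low-Myc and -0.016 against mid-Myc at 24 hours. With 1 factor per array from all ERCC probe sets, 5 markers were higher and 2 lower per cell in high-Myc against low-Myc, with FCER2 at -0.37, and 3 were higher in high-Myc against mid-Myc, with CD86 at -0.084. CD44 in high-Myc against mid-Myc was at 0.044 with span 0.4 and at 0.10 with the factor from the brighter ERCC probe sets, neither called, and was called lower at -0.27 with the mean of all probe sets and at -0.20 with 1 factor from all ERCC probe sets.

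Quantile normalization gave 2 markers lower at 1 hour on the equal-median scale, SLAMF1 and CD40 (-0.13), with CD69 at -0.17, CD86 at -0.16 and CD44 at -0.12 not called, and CD80 at -0.0037 at 24 hours. Centred on the tested genes, 0 markers were higher in high-Myc against low-Myc (TNFRSF8 at 0.20, adjusted p = 0.0512), CD80 was at -0.075, and at 1 hour CD69 was at -0.044, CD40 at -0.026 and CD86 at -0.11. The values as deposited gave 2 lower at 1 hour, SLAMF1 and TNFRSF8 (-0.27), with CD69 at -0.079, CD40 at -0.061, CD86 at -0.14 and CD44 at -0.035 not called, and CD80 at -0.011 at 24 hours. With log2(intensity + 16), CD86 was at -0.025 at 1 hour.

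With each array left out in turn, counts on the equal-median scale ran from 1 to 2 higher in high-Myc against low-Myc and in high-Myc against mid-Myc (2 without high-Myc replicate 2), and from 0 to 1 lower at 1 hour (0 without low-Myc replicate 1 or mid-Myc replicate 1). The member values that changed sign ran from -0.0064 to 0.23 for TNFRSF8 at 1 hour per cell and from -0.061 to 0.054 for CD44 in high-Myc against mid-Myc per cell. On the equal-median scale they ran from -0.018 to 0.033 for CD86 and -0.13 to 0.018 for CD80 at 1 hour, and for CD80 from -0.10 to 0.36 against low-Myc and -0.045 to 0.41 against mid-Myc. Same-numbered arrays did not deviate together over genes (correlations of -0.0090 to 0.019), and the replicate number was not used as a pair. With 2 arrays a group this cannot exclude that same-numbered arrays shared a culture or a processing step. With the replicate number as a block the counts were 8 higher and 1 lower in high-Myc against low-Myc per cell and 1 and 8 on the equal-median scale. At 1 hour they were 7 and 0 and 3 and 1, and in high-Myc against mid-Myc 5 and 4 and 1 and 7, as without the block. The highest background probe set averaged 694 intensity and the second highest 194. In high-Myc arrays CD80 (119), FCER2 (121) and CD69 (122) averaged below both, and TNFRSF8 (203) lay between them. In low-Myc and mid-Myc arrays CD80 (118 and 103) and TNFRSF8 (168 and 140) also averaged below both. The part of background signal in these values was not tested, so the sizes of changes at these levels are not settled.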
